A study of Mus musculus with 6 samples.

Results

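The genes described here encode the semaphorins, a family of guidance ligands, and the proteins that receive them, the plexins and neuropilins, together with Plxdc1 and Plxdc2, which encode membrane proteins with a plexin-like extracellular domain. They were taken from the array by gene symbol, as every probe set whose only symbol on the platform belonged to one of these families, and 1 probe set was used for each gene, the one with the highest mean log2 value over the 6 arrays. This gave 33 genes of the 18193 named by a single symbol, measured by 83 of 45037 probe sets. The genes comprised 20 semaphorins, 11 plexins and neuropilins, and the 2 Plxdc genes.

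Semaphorins are secreted, membrane-spanning or lipid-anchored proteins that were first known for steering growing axons and that also act on vessels, immune cells and migrating precursors. Class 3 semaphorins are secreted and bind neuropilins, which pass the signal to a plexin partner; the membrane-bound classes mostly bind plexins directly. Plexins carry an intracellular domain that acts on small Ras-family GTPases and loosens adhesion and the actin cytoskeleton. In muscle, the class 3 ligand Sema3a is known as a product of cultured rodent satellite cells that acts on motor neurites.

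The study compared PICs, known in the field as muscle interstitial cells that express the Peg3 product PW1, with satellite cells, the resident stem cells of muscle. Both were prepared from the hindlimbs of C57 black 6 animals, 7 to 9 days of age, and separated by flow cytometry on CD34 and Sca1, with no genotype or treatment given in the labels for either population. Each population had 3 arrays, which the labels call biological replicates without saying whether they came from separate animals or pools, so the p-values measure the spread between these samples. Values are GCRMA intensities, a background-corrected and quantile-normalized measure of hybridisation for each probe set, and are given on the linear scale for each array, in the order of replicates 1, 2 and 3. A difference is the log2 level in PICs minus that in satellite cells.

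The median intensity was 10 on all arrays, and replicates of one population correlated at 0.956 to 0.986 across the 10855 genes that entered the test. The satellite cell markers were higher in satellite cells in 7 of 7 genes and the interstitial mesenchymal markers higher in PICs in 7 of 7. Peg3 did not differ beyond the threshold (0.19, limma, adjusted p = 0.156), and Cd34 was higher in PICs by 1.92 (adjusted p = 6.97e-05). Markers of other cell types were present in both populations: 0 of 10 endothelial markers passed the test in either direction, and their summed intensity ranged from 2599 to 8797 in PICs and from 4605 to 6531 in satellite cells. Leukocyte markers summed to between 155 and 2879 in PICs and between 174 and 3727 in satellite cells, with replicate 1 highest in both and Itgam not above 16 on any array. Of 7 Schwann and glial markers tested, 3 were higher in PICs (Cdh19, Ngfr and S100b; with the replicate block also Sox10, adjusted p = 0.00779) and 0 in satellite cells, with sums of 12134 to 26655 in PICs and 12511 to 21189 in satellite cells. Of 8 pericyte and smooth muscle markers, 1 was higher in PICs and 3 in satellite cells (sums of 9007 to 22118 in PICs and 31052 to 34471 in satellite cells), and of 8 fibre markers, 4 were higher in PICs and 2 in satellite cells (sums of 4697 to 5428 in PICs and 4319 to 8676 in satellite cells). The part of these markers in the differences below was not tested.

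Semaphorins and their receptors differed in level between PICs and satellite cells. Of the tested family genes, only Sema3a and Sema4f were at or under 16, the low value level of intensity, on all arrays of 1 population. Higher in PICs were the secreted ligands Sema3c and Sema3d, the class 5 ligands Sema5a and Sema5b, both neuropilins, both Plxdc genes and the plexin Plxnc1, by 4.69-fold to 21.0-fold, and Sema4b, Sema6c, Sema6d and Plxna3 by 2.19-fold to 3.57-fold. Higher in satellite cells were the ligands Sema3a, Sema4d, Sema4f, Sema6a and Sema6b and the plexins Plxna2 and Plxnb1. A gene was counted when its Benjamini-Hochberg adjusted p over all genes tested was under 0.05 and its difference at least 2-fold. By that rule 13 of the 30 tested genes of the families were higher in PICs (43.3%), where 16.7% of all genes tested were, and 7 were higher in satellite cells (23.3%), where 13.0% of all genes were. In either direction the rule took 20 of the 30, or 66.7%, against 29.8% of all genes. Because the cells of a population were measured together, fewer cells with a transcript and less transcript in each cell cannot be told apart.

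**Figure D1:**
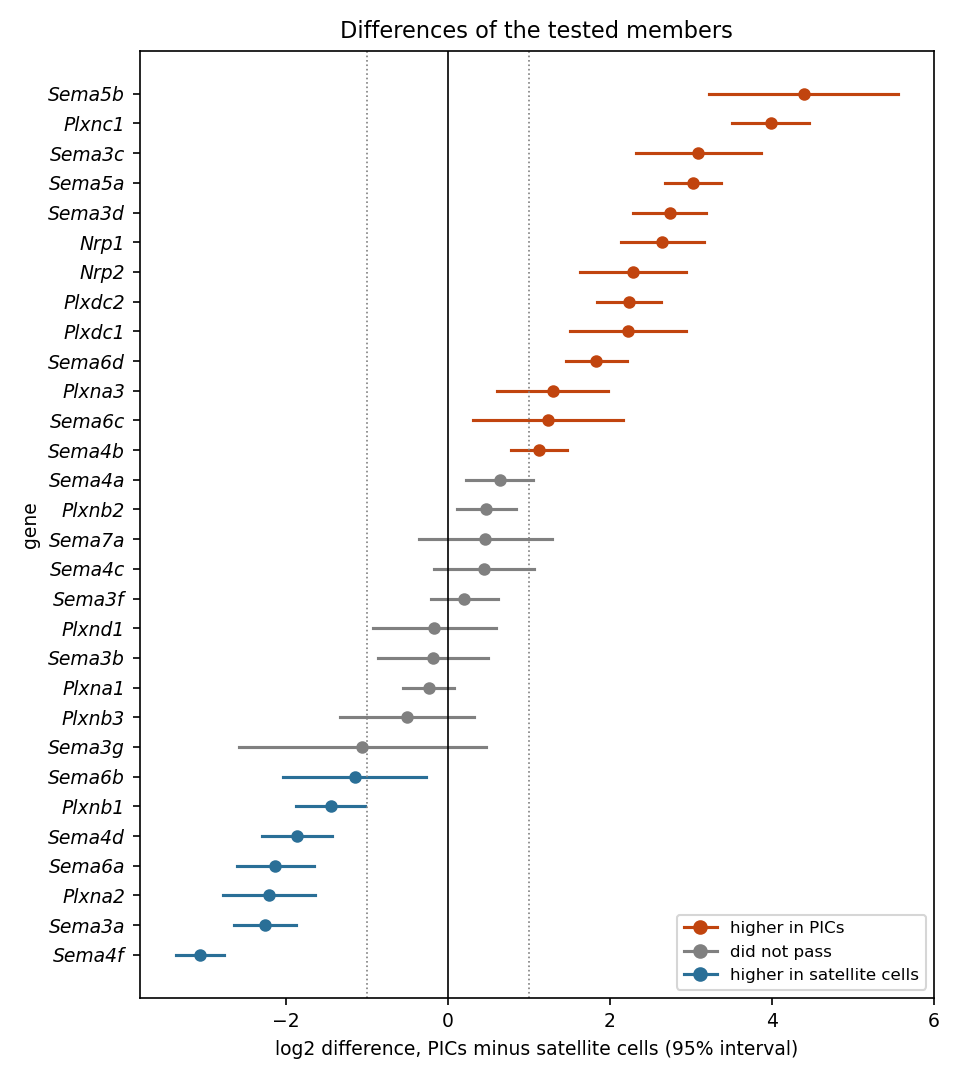
Fitted log2 differences (x axis, PICs minus satellite cells, with 95% intervals from limma) for the 30 tested genes (y axis), coloured by whether the gene passed the adjusted p and the 2-fold threshold, marked by dotted lines. The 13 genes higher in PICs run from Sema4b at 1.13 to Sema5b at 4.40, and the 7 higher in satellite cells from Sema6b at -1.14 to Sema4f at -3.06.

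The arrays of the populations did not overlap in 15 genes with PICs above and in 7 with satellite cells above, 73.3% of the 30, where 64.6% of all genes did not overlap (31.3% with PICs above and 33.2% with satellite cells above). With the replicate number as a block the counts were again 13 and 7, where 17.1% of all genes were higher in PICs and 13.3% in satellite cells. The median difference over the 30 genes was 0.47, and over all genes -0.04. Of the 33 genes, 3 did not pass the filter, which asked for an intensity above 16 (a log2 value above 4) on at least 3 of the 6 arrays: Sema3e, Sema4g and Plxna4. Sema3a and Sema4f passed it through the satellite arrays alone, so that a difference was built into their passing. Several probe sets were present for 27 of the 33 genes, and 12 genes had more than 1 above the filter. The calls of Sema3a, Sema3d, Sema4b, Sema4d, Sema4f, Sema6a, Sema6c, Sema6d, Plxna3 and Plxdc1 rest on 1 probe set each, with their others under the filter. The call of Sema6b rests on the only probe set it had.

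As a view of the regulatory sequence of genes that moved in opposite directions, the 250 bases before the annotated start are shown for the class 3 and class 5 ligand genes Sema3c and Sema5a, 8.56-fold and 8.16-fold higher in PICs, and for Sema4f, the ligand gene with the most negative difference. The sequences are from RefSeq (GRCm38.p6), 5′ to 3′ on the strand of the gene, at chr5:17574566-17574815 (plus strand), chr15:32244563-32244812 (plus strand) and chr6:82939770-82940019 (minus strand), and lie outside the annotated genes. Capitals mark GGGCGG or its reverse complement, the GC box known to be bound by Sp-family factors.
Sema3c: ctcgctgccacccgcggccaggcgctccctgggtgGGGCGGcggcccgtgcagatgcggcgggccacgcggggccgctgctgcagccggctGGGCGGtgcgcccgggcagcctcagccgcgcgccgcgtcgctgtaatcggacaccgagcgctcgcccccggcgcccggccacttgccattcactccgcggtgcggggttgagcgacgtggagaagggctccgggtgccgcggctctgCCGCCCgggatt
Sema5a: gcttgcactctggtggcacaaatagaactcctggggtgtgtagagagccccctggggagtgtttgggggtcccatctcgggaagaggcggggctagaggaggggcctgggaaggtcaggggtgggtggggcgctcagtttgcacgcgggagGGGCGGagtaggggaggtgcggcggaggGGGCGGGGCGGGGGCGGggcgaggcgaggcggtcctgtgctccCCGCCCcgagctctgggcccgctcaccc
Sema4f: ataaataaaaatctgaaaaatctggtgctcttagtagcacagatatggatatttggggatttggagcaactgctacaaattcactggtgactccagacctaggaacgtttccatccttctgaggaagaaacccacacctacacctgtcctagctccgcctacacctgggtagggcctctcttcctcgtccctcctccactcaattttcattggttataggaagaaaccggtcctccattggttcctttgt
Counting overlapping copies, the Sema3c window held 3 GC boxes, the Sema5a window 5 and the Sema4f window 0. Windows not shown could go the other way. Those of Sema5b and Sema3d, higher in PICs, held 0, and those of Plxnb1 and Plxna2, higher in satellite cells, held 4 and 2. Of the 33 genes, 26 had such windows in the table, 37 in all, and GGGCGG on either strand was in 27 of the 37 (73.0%), against 42.6% of 21262 windows of protein-coding genes. It was in 10 of 14 windows of genes higher in PICs (71.4%) and in 5 of 9 windows of genes higher in satellite cells (55.6%). TATAAA was in 0 of the 37 windows and in 11.6% of the protein-coding ones. The E-box CAGCTG, a sequence known to be bound by myogenic factors such as MyoD, was in 6 of the 37 windows (16.2%). Its share of the protein-coding windows was 12.1%. It was in 1 of 14 windows of genes higher in PICs (7.14%) and in 1 of 9 of genes higher in satellite cells (11.1%). CATTCC, the core sequence of TEAD factors, was in 3 of the 37 (8.11%, against 11.7%), and TGACTCA, the AP-1 sequence, in 2 (5.41%, against 4.06%). All motifs were searched on both strands, and windows of alternative starts of a gene can overlap. A match describes these letters only.

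Among the secreted class 3 semaphorins, Sema3c and Sema3d were higher in PICs, and Sema3a was higher in satellite cells. Sema3c, which binds neuropilins and is known for its part in forming the cardiac outflow tract, had intensities of 7121, 6788 and 5808 on the PIC arrays, against 850, 468 and 1127 on the satellite arrays. All PIC arrays lay far above all satellite arrays, a difference of 3.10 (8.56-fold, 95% interval 2.33 to 3.86, adjusted p = 0.000353), and its second probe set differed by 4.30. Sema3d, another neuropilin-binding ligand, read 134, 152 and 163 in PICs, against 22, 18 and 28 in satellite cells, where it was near the low value level of 16. The difference was 2.74 (adjusted p = 9.94e-05).

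Sema3a, the best studied axon repellent of the class, ran the other way. It had intensities of 9, 11 and 11 on the PIC arrays, against 41, 52 and 55 on the satellite arrays. No PIC array rose above the low value level, so the fold is a bound: satellite cells had Sema3a at least 3.06-fold higher than PICs (fitted difference -2.25, adjusted p = 0.000109). A second Sema3a probe set read 6, 7 and 7 in PICs and 18, 13 and 20 in satellite cells and did not pass the filter.

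The other class 3 genes did not pass the test. Sema3b read 497, 387 and 245 in PICs and 500, 392 and 351 in satellite cells, with overlapping arrays and a difference of -0.18 (95% interval -0.86 to 0.50; 0.10 without PICs replicate 3). Sema3f, a ligand that prefers neuropilin 2, depended on the probe set. The one used, of a type that can also bind related transcripts, read 83, 83 and 120 in PICs and 83, 83 and 78 in satellite cells (difference 0.21, 95% interval -0.20 to 0.62; 0.03 without PICs replicate 3). Another, at 63, 87 and 59 in PICs against 19, 40 and 43 in satellite cells, differed by 1.10 and passed in a fit over all probe sets, which called 27.9% of them (adjusted p = 0.0395). Sema3e, a ligand of plexin D1, lay between 8 and 11 on every array.

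**Figure D2:**
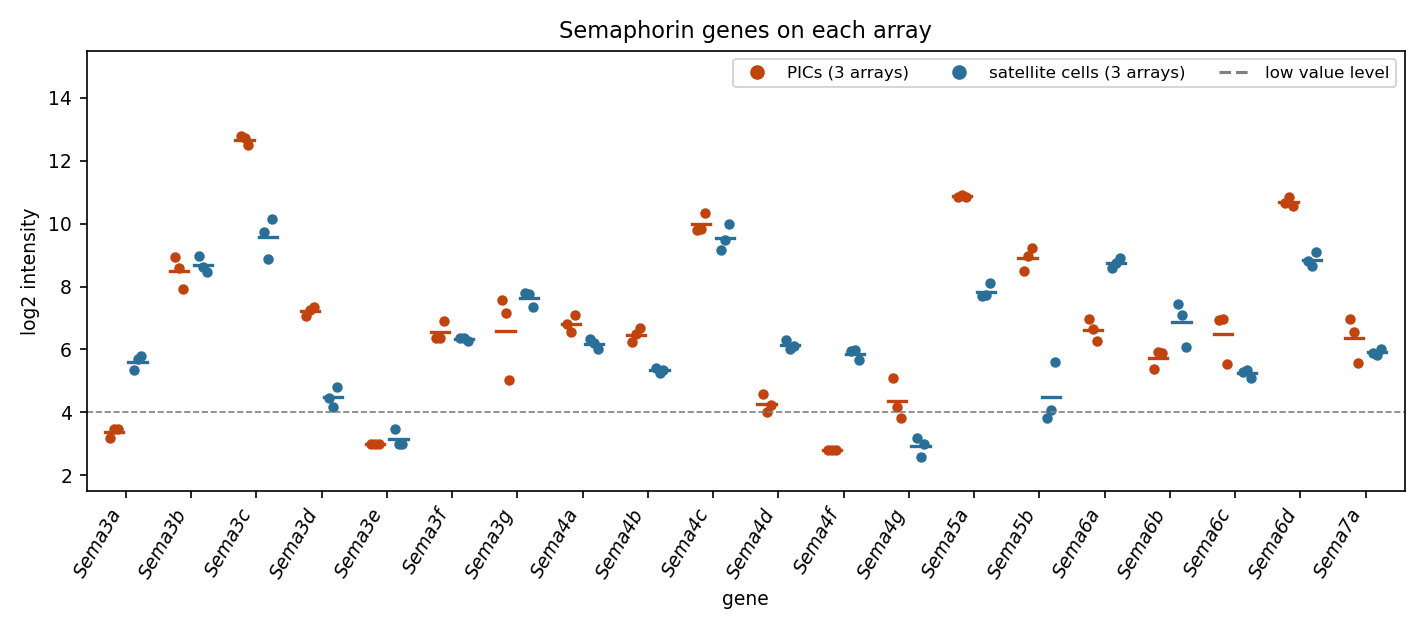
Log2 intensity (y axis) of the 20 semaphorin genes (x axis) on each of 3 PIC arrays and 3 satellite arrays, with bars at the means and a dashed line at the low value level of 4. Sema3c, Sema5a, Sema5b and Sema3d stand highest above their satellite arrays, and Sema3a and Sema4f have all PIC arrays under the dashed line.

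Both class 5 semaphorins, membrane-spanning ligands with thrombospondin-type repeats, were higher in PICs. Sema5b read 363, 500 and 599 in PICs, against 14, 17 and 49 in satellite cells. Its difference of 4.40 was the most positive of the 30 (21.0-fold, 95% interval 3.23 to 5.56, adjusted p = 0.000461), although the satellite arrays straddled the low value level and differed among themselves. A second probe set, at 34, 65 and 57 in PICs against 11, 6 and 8 in satellite cells, gave 2.63. It passed the filter through the PIC arrays alone, and its difference rests on satellite values under the low value level.

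Sema5a was more even between replicates, at 1845, 1944 and 1836 in PICs, against 208, 212 and 275 in satellite cells. The difference was 3.03 (8.16-fold, 95% interval 2.69 to 3.37, adjusted p = 4.56e-05). Its other probe sets above the filter gave 3.07 and 3.26. The one at 3.07 read 2702, 2460 and 808 in PICs, against 358, 199 and 127 in satellite cells, with replicate 3 lowest in both populations. The one at 3.26 read 49, 72 and 54 in PICs, against 6, 6 and 6 in satellite cells. It passed the filter through the PIC arrays alone, and its difference rests on satellite values under the low value level.

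Class 4 semaphorins, membrane-spanning ligands that mostly bind B plexins, were divided. Sema4b read 76, 90 and 103 in PICs, against 43, 38 and 41 in satellite cells, a difference of 1.13 just past the 2-fold threshold (adjusted p = 0.000827; 0.89 with a pseudocount of 16). Sema4d, a ligand of plexin B1 best known from lymphocytes, read 24, 16 and 19 in PICs, against 79, 64 and 69 in satellite cells. All satellite arrays lay above all PIC arrays, a difference of -1.86 (adjusted p = 0.000277). The leukocyte marker Ptprc read 181, 9 and 6 in PICs and 215, 6 and 6 in satellite cells, and the leukocyte gene Laptm5 read 671, 116 and 27 in PICs and 867, 59 and 54 in satellite cells. The part of leukocyte RNA in the Sema4d values was not tested.

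Sema4f, a class 4 ligand found in the nervous system, had intensities of 7, 7 and 7 on the PIC arrays, against 62, 63 and 51 on the satellite arrays. Satellite cells were at least 3.65-fold higher than PICs (fitted difference -3.06, adjusted p = 3.32e-05). The value comes from a probe set of a type that can also bind related transcripts, and the other Sema4f probe set read 5 on every array.

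The remaining class 4 genes were not called. Sema4c, a ligand of plexin B2, read 883, 915 and 1299 in PICs and 573, 711 and 1022 in satellite cells, where the ranges overlapped although PICs were higher at each replicate number (difference 0.44, 95% interval -0.17 to 1.06; 0.27 without PICs replicate 3, 0.25 without satellite replicate 1 and 0.67 without satellite replicate 3). Sema4a, a ligand known from immune cells, read 112, 95 and 137 in PICs and 81, 74 and 64 in satellite cells. Its difference of 0.64 was under 2-fold (adjusted p = 0.0188), and with the mean of its probe sets it was 1.28 and passed (adjusted p = 0.0409). Sema4g lay at 34, 18 and 14 in PICs and at 9, 6 and 8 in satellite cells and was not tested.

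The class 6 semaphorins, membrane-spanning ligands that bind A plexins, split evenly, with 2 genes higher in each population. Sema6d, which signals through plexin A1 in the developing chick heart, read 1617, 1858 and 1502 in PICs, against 446, 406 and 549 in satellite cells. The difference was 1.83 (3.57-fold, adjusted p = 0.000191), with no overlap. Sema6a, a ligand of plexin A2 and plexin A4, was lower in PICs, at 124, 101 and 77, against 389, 426 and 486 in satellite cells (difference -2.13, adjusted p = 0.000249).

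Sema6b and Sema6c passed with less margin. Sema6b, a ligand of plexin A4, read 42, 60 and 59 in PICs and 175, 137 and 67 in satellite cells, where replicate 3 came close to the PIC arrays. Its difference was -1.14 (adjusted p = 0.0359), and it was not called when any 1 of the 3 PIC arrays, satellite replicate 1 or satellite replicate 2 was left out (adjusted p = 0.0623 to 0.109). Sema6c read 122, 125 and 47 in PICs and 39, 41 and 34 in satellite cells, a difference of 1.24 (adjusted p = 0.0320). It was not called without PICs replicate 1 or 2 or without any 1 of the 3 satellite arrays (adjusted p = 0.0726 to 0.104), and without PICs replicate 3, the low one, the difference was 1.70. Sema7a, the lipid-anchored semaphorin, read 126, 94 and 48 in PICs and 59, 57 and 64 in satellite cells (difference 0.47, 95% interval -0.36 to 1.29), which was 0.16 without PICs replicate 1 and 0.86, still under 2-fold, without PICs replicate 3 (adjusted p = 0.00751).

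Of the receptors, both neuropilins were higher in PICs on every probe set that passed the filter. Nrp1, the co-receptor of Sema3a and Sema3c and of vascular endothelial growth factor, had intensities of 8876, 8542 and 9421 on the PIC arrays, against 1361, 1097 and 1936 on the satellite arrays. The difference was 2.65 (6.28-fold, 95% interval 2.13 to 3.16, adjusted p = 0.000161), and its 3 other probe sets gave between 2.38 and 3.02. The Nrp1 signal was thus also well above the low value level on all satellite arrays. Whether it came from satellite cells or from other cells among them was not tested. Nrp2, the preferred co-receptor of Sema3f, read 367, 359 and 325 in PICs, against 107, 69 and 50 in satellite cells (difference 2.29, adjusted p = 0.000628).

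**Figure D3:**
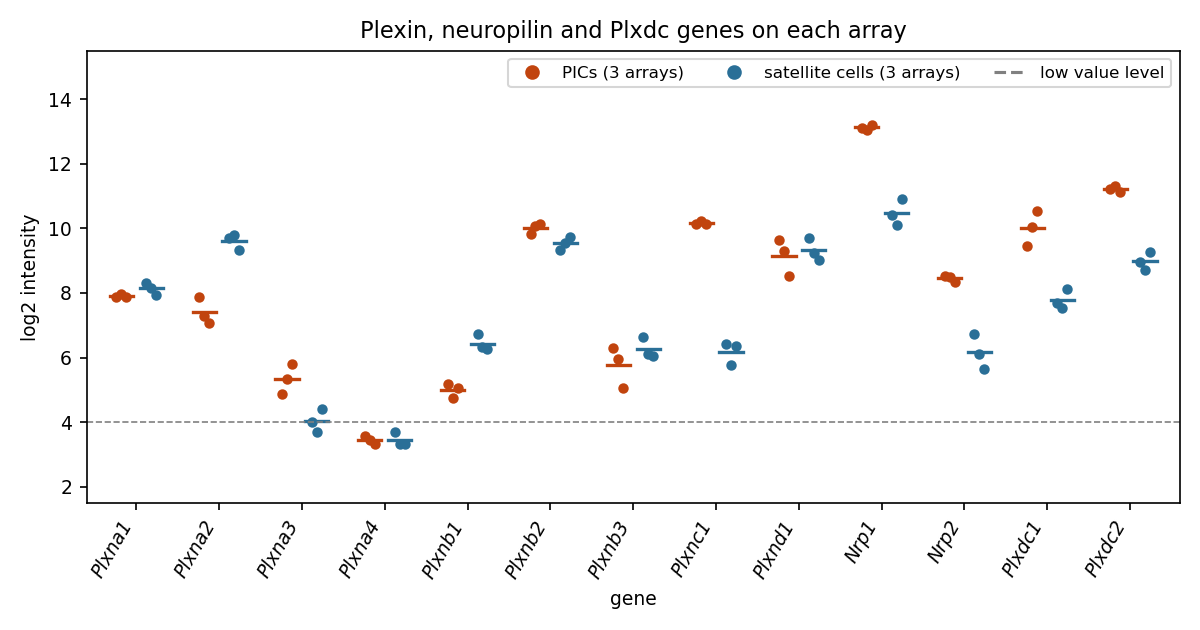
Log2 intensity (y axis) of the 9 plexin, 2 neuropilin and 2 Plxdc genes (x axis) on each of 3 PIC arrays and 3 satellite arrays, with bars at the means and a dashed line at the low value level of 4. Plxnc1, both neuropilins and both Plxdc genes lie higher in PICs without overlap, Plxna2 and Plxnb1 lie higher in satellite cells, and Plxna4 stays under the line on all arrays.

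Of the 8 plexins tested, 2 were higher in PICs and 2 in satellite cells, where 16.7% and 13.0% of all genes were. Plxnc1, the plexin that binds Sema7a, read 1134, 1195 and 1118 in PICs, against 86, 54 and 82 in satellite cells. The spread within PICs was small and the difference of 3.99 was the second most positive of the families (15.8-fold, 95% interval 3.52 to 4.46, adjusted p = 4.67e-05). A second Plxnc1 probe set read 301, 277 and 238 in PICs against 14, 9 and 9 in satellite cells. It passed the filter through the PIC arrays alone, and its fitted difference of 4.70 rests on satellite values under the low value level. Plxna3, a partner of neuropilins, was low in both populations, at 29, 40 and 56 in PICs and 16, 13 and 21 in satellite cells (difference 1.30, adjusted p = 0.00842; 0.80 with a pseudocount of 16).

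Plxna2, the receptor of Sema6a and a partner of neuropilins, was lower in PICs, at 233, 157 and 135, against 834, 894 and 649 in satellite cells. The difference was -2.20 (4.61-fold higher in satellite cells, 95% interval -2.77 to -1.64, adjusted p = 0.000415). Of its 4 probe sets above the filter, 2 were lowest by far on replicate 3 in both populations. One read 140, 99 and 18 in PICs and 740, 510 and 216 in satellite cells, and the other 116, 80 and 8 in PICs and 505, 307 and 68 in satellite cells. The difference of this other probe set, -2.38, passed only with the replicate number as a block (adjusted p = 0.149 without it and 0.0021 with it). Both Sema6a and Plxna2, a ligand and its receptor, were thus higher in satellite cells.

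Plxnb1, the receptor of Sema4d, read 36, 27 and 33 in PICs, against 105, 80 and 77 in satellite cells (difference -1.44, adjusted p = 0.000684). A second probe set differed by -0.49, under the 2-fold threshold. Plxnb2, a receptor of Sema4c, read 913, 1079 and 1126 in PICs and 643, 741 and 858 in satellite cells, 0.48 apart and under 2-fold (adjusted p = 0.0351). Plxna1 read 237, 249 and 235 in PICs and 320, 285 and 246 in satellite cells (difference -0.23, 95% interval -0.55 to 0.08; -0.14 without satellite replicate 1), and Plxnb3 78, 62 and 33 in PICs and 100, 69 and 66 in satellite cells (difference -0.50, 95% interval -1.33 to 0.32; -0.77 without PICs replicate 1, -0.15 without PICs replicate 3 and -0.32 without satellite replicate 1). Plxna4 lay between 10 and 13 on every array.

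Both Plxdc genes, which encode receptors of pigment epithelium-derived factor first described in tumour vessels, were higher in PICs. Plxdc2 read 2403, 2540 and 2223 in PICs, against 501, 421 and 615 in satellite cells, and its 3 probe sets differed by 1.48 to 2.24 (adjusted p = 0.000122 for the one used). Plxdc1 read 704, 1052 and 1473 in PICs, against 207, 184 and 278 in satellite cells. The PIC arrays spread over 2-fold or more yet stayed above all satellite arrays (difference 2.23, adjusted p = 0.000983).

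**Figure D4:**
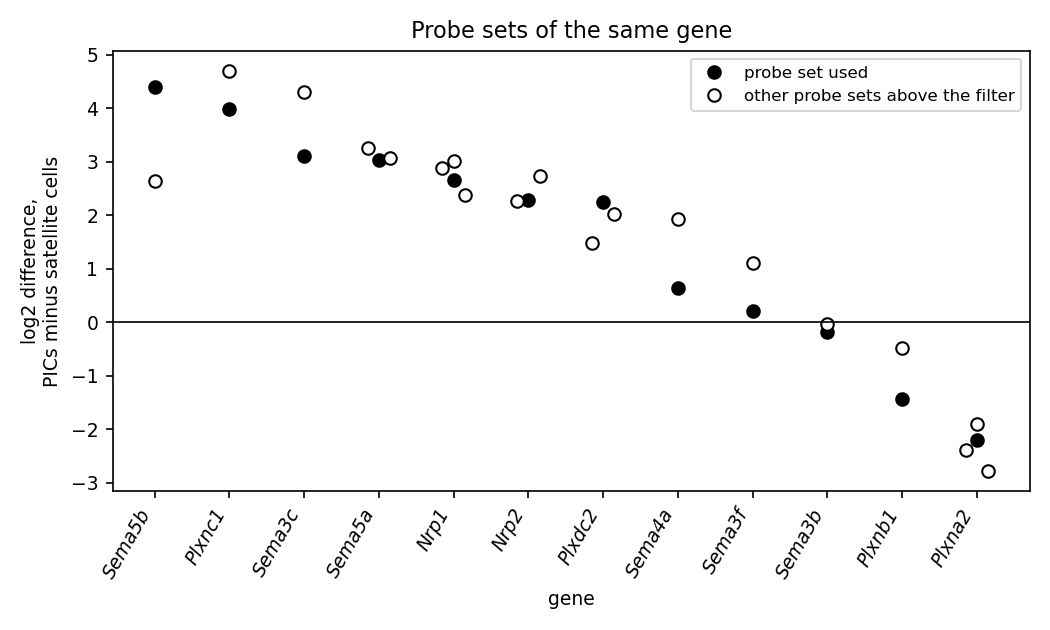
Log2 difference (y axis, PICs minus satellite cells) of every probe set above the filter for the 12 genes that have more than 1 (x axis), with the probe set used filled. No gene has probe sets on opposite sides of 0. The fitted differences of the Sema5b probe sets, at 4.40 and 2.63, lie furthest apart. The Sema5b probe set at 2.63, the Sema5a one at 3.26 and the Plxnc1 one at 4.70 passed the filter through the PIC arrays alone. Their differences rest on satellite values under the low value level.

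Several of these genes varied with the replicate number. Among tested genes, 7 had PIC arrays that spread over at least 2-fold: Sema3g, Sema6c, Sema7a, Plxnb3, Plxnd1, Plxdc1 and Sema3b. Sema3g, a class 3 ligand best known from endothelium, read 189, 143 and 33 in PICs and 223, 216 and 165 in satellite cells (difference -1.05, 95% interval -2.58 to 0.48; -0.28 without PICs replicate 3). Plxnd1, the receptor of Sema3e on endothelial cells, read 791, 624 and 372 in PICs and 830, 607 and 514 in satellite cells (difference -0.17, 95% interval -0.92 to 0.59; 0.14 without PICs replicate 3). Of the 7, only Plxdc1 was highest in PICs replicate 3.

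The endothelial markers were also low on PICs replicate 3. Cdh5, the cadherin of endothelium, read 2146, 1683 and 362 in PICs and 1407, 851 and 658 in satellite cells, and Tie1 read 180, 99 and 16 in PICs and 130, 81 and 50 in satellite cells. PICs replicate 3 was the lowest PIC array for all 10 endothelial markers. This was not particular to endothelium, as every pericyte and smooth muscle marker listed was lowest there too. Rgs5 read 8233, 5605 and 2444 in PICs. Of the glial markers, Mbp read 12073, 4908 and 1503 in PICs, while Cdh19 went the other way at 108, 112 and 247. The part of any of these markers in the values of Sema3g and Plxnd1 was not tested.

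**Figure D5:**
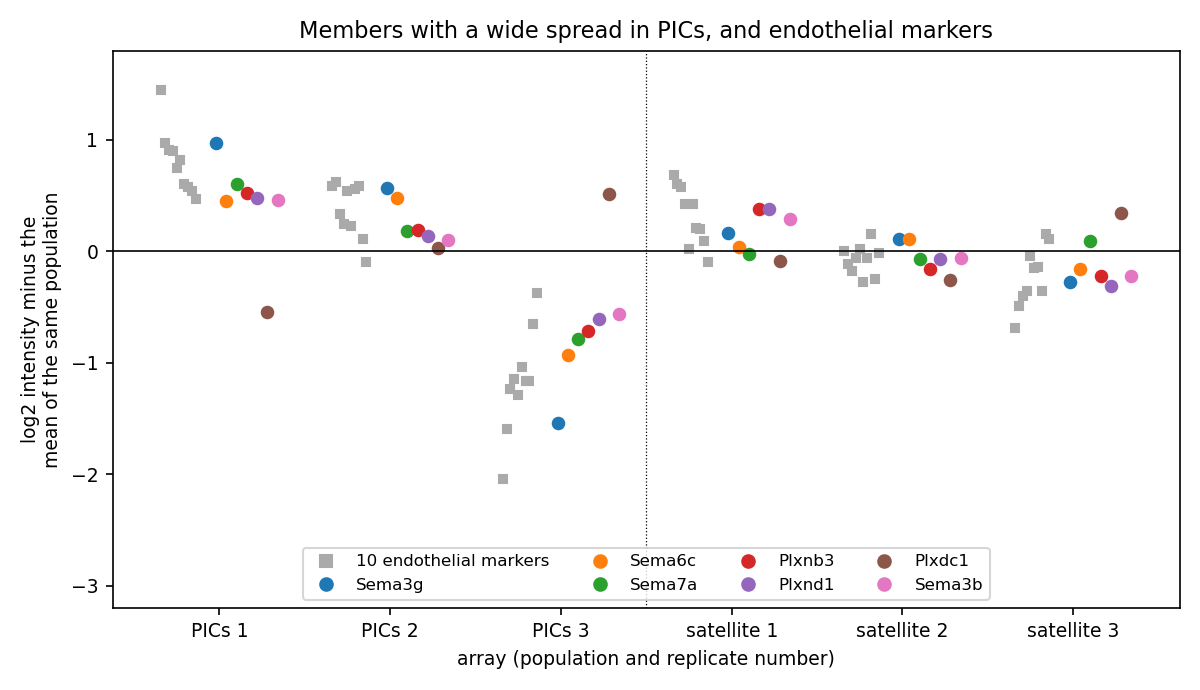
Log2 intensity of each array minus the mean of its population (y axis) on the 6 arrays (x axis), for the 7 genes whose PIC arrays spread over at least 2-fold (coloured) and for 10 endothelial markers (grey). On PICs replicate 3 all 10 markers and all of these genes except Plxdc1 lie below 0, and Sema3g is at -1.54.

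Among the genes higher in PICs, the low levels in satellite cells were not even. With the probe set used for each gene, 9 of the 13 were highest on satellite replicate 3 (54.8% of all genes higher in PICs were). On replicate 2, 9 of 13 were lowest, while Nrp2 and Sema6c were lowest on replicate 3. The share of all genes lowest on replicate 2 was not taken, so that count has nothing to be read against. Other probe sets can differ: 2 of the 3 others of Nrp1, at 1466, 1002 and 1159 and at 509, 358 and 396, were highest on satellite replicate 1. The other of Sema5b, under 16 on all satellite arrays, was also highest on satellite replicate 1. So were a Sema5a probe set, at 358, 199 and 127 on the satellite arrays, and a Plxdc2 one, at 141, 79 and 60, both lowest on replicate 3. The remaining Nrp1 probe set, the other of Sema3c and another of Plxdc2 were highest on satellite replicate 3. Of 7 interstitial mesenchymal markers, 6 were highest on satellite replicate 3, and Pdgfra, the receptor that marks these cells, read 10133, 9265 and 9081 in PICs and 513, 449 and 1074 in satellite cells. On the PIC arrays all 7 satellite cell markers were highest on replicate 1, where Pax7 read 236 against 87 and 81 on the others, and so were 4 of the 7 genes higher in satellite cells (Plxna2, Plxnb1, Sema4d and Sema6a), against 32.7% of all genes higher in satellite cells. Sema3a and Sema6b were lowest there, and Sema4f read 7 on all PIC arrays. Whether this low signal came from the cells themselves or from cells of the other population was not tested. Without both arrays numbered 3 the counts were again 13 and 7.

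A list of genes for semaphorin signals inside the cell, and of relatives of such genes, held 36 tested genes. Of these, 8 were higher in PICs and 4 in satellite cells, near the shares of 16.7% and 13.0% over all genes. Their median difference was 0.32. Higher in PICs were Dpysl3, a collapsin response mediator protein (3.45, adjusted p = 0.000122), Rnd2, a GTPase of the family that binds plexins (2.53), Fes, a kinase of plexin A1 signalling (2.38), and Ssh1, a phosphatase that activates cofilin (1.68). Rras, a GTPase on which plexins act, read 2571, 2660 and 2702 in PICs, against 1093, 963 and 1111 in satellite cells (difference 1.33, adjusted p = 0.000171), while its relative Rras2 read 93, 61 and 83 in PICs, against 596, 623 and 620 in satellite cells (difference -2.98, adjusted p = 7.43e-05). Rap1a (0.48) and Rap1b (0.59), GTPases of the same family, were not called. Of the MICAL genes, which encode redox enzymes of actin and their relatives, Micall2 (-1.51), Micall1 (-1.28) and Mical3 (-1.21) were higher in satellite cells, while Mical1 (0.13) and Mical2 (0.53) were not called. Rhoa, Rac1 and Cdk5 differed by -0.11, 0.02 and 0.24 and were not called. Rras, Rap1a, Rap1b, Mical1, Mical2, Rhoa, Rac1 and Cdk5 were named after their values were seen.

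Among co-receptors, alternative receptors and the growth factors that share neuropilins, 5 of 14 tested genes were higher in PICs and 2 in satellite cells (1 without PICs replicate 3), where 16.7% and 13.0% of all genes were, and the median was 0.34. Met, the growth factor receptor that associates with B plexins, read 181, 110 and 71 in PICs, against 2007, 2393 and 1836 in satellite cells (difference -4.20, adjusted p = 0.000156). Its relative Mst1r, which also associates with B plexins, went the other way at 51, 98 and 101 in PICs and 6, 6 and 6 in satellite cells, at least 4.98-fold higher in PICs (adjusted p = 0.000121). Mst1r passed the filter through the PIC arrays alone, so that a difference was built into its passing and into its count among the 5. Erbb2, a further partner of plexin B1, was higher in PICs by 1.38 (adjusted p = 0.000822). Itga1, the integrin subunit that binds Sema7a, read 545, 574 and 610 in PICs, against 115, 73 and 140 in satellite cells (difference 2.45, adjusted p = 0.000309). Its partner subunit Itgb1 differed by 0.44, under 2-fold (adjusted p = 0.0246), and was named after its values were seen. Pgf, a neuropilin 1 ligand of the vascular endothelial growth factor family, was higher by 2.96 (adjusted p = 0.00732), at 84, 149 and 314 in PICs against 10, 22 and 38 in satellite cells. Ranbp9, a plexin A binding protein, was lower in PICs by a small margin (-1.06, adjusted p = 0.00835).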

How the data were processed

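Sorted PICs and satellite cells were measured on 1-colour Affymetrix arrays, 3 per population, from 200 ng of total RNA per the labels' protocols. The deposited intensity values were made with GCRMA, per the submitters' processing notes, with no version given; they are linear and rounded to whole numbers, which makes steps coarse on the log2 scale at low values. Here they were taken to log2. Probe sets were named by the platform annotation, updated by gene number against RefSeq (GRCm38.p6); 34945 of 45037 had 1 symbol, 932 several and 9160 none listed.

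Probe sets with a log2 value above 4 on at least 3 of 6 arrays were kept, and the one of highest mean per gene was used (10855 genes). Limma 3.58.1 (lmFit, eBayes, two-sided; R 4.3.3) was fitted over all of them with Benjamini-Hochberg adjustment, and tested on simulated data. A gene was called at an adjusted p under 0.05 and an absolute log2 difference of at least 1. Where no array of a population exceeded 4, the fold is a bound against 4, written "at least". Depth has no counterpart on arrays; 3 arrays per population limit the precision.

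All 33 family genes were accounted for, and of 2 pathway lists up to 4 called genes per direction with the largest difference were named. Members and lists were chosen with earlier results of these data known. Other genes were named after their values were seen. Ly6a, Rhod, Pak1 and Rock2 were not analysed here. Arrays of equal replicate number deviated together (correlations across genes of 0.623, 0.222 and 0.579, against -0.568 to 0.0363 for unequal numbers), so the numbers pair the samples by the data, not the labels; a fit with the number as a block was an alternative. Other alternatives changed the filter, the probe set rule, normalization, a floor or pseudocount, variance model, array weights and fold minimum, or left out arrays. No scan dates were used.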

Additional observations from a re-analysis of the deposited data

How the results depend on the processing

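The counts of family genes, 13 higher in PICs and 7 in satellite cells, stayed at 10 to 15 and 4 to 7 over all alternatives run. The lowest, 4, came with the stricter filter (log2 above 6), under which Sema3a, Sema4d and Sema4f were not tested. With the replicate block the counts were again 13 and 7, and the block changed no call of these genes in the fit over genes. Leaving out 1 array gave 12 to 13 and 6 to 7 for these genes, 3029 to 3259 called genes in all, 7 to 9 and 3 to 5 signalling genes, and 4 to 5 and 1 to 3 co-receptor and neuropilin ligand genes, higher in PICs and in satellite cells in that order. Without a fold minimum 6106 genes passed in all, against 3230, and 16 signalling genes were higher in PICs, against 8. Co-receptor and neuropilin ligand genes higher in satellite cells numbered 1, against 2, with array weights, without PICs replicate 3 and without both arrays numbered 3, an alternative added after seeing the data, as was the fit over all probe sets. Plxnd1 changed sign without PICs replicate 3 (0.14) and without satellite replicate 1 (0.03), and Sema3b without PICs replicate 3 (0.10); leaving out 1 array gave -0.40 to 0.14 and -0.41 to 0.10, and neither gene was called. With no filter, Sema6b (adjusted p = 0.137) and Sema6c (adjusted p = 0.128) lost their calls, and a pseudocount of 16 took Plxna3, Sema4b, Sema6b and Sema6c under 2-fold. With the mean of its probe sets Plxnb1 was at -0.97, under 2-fold. Signal near the low value level limits Sema3a, Sema3d, Sema4d, Sema4f, Plxna3 and the satellite level of Sema5b.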
